A study of Mus musculus with 7 samples.

Results

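The lnc-31 probe pull-down and the lacZ probe pull-down are described here through every peak deposited for them, 596 for the lnc-31 probes and 476 for the lacZ probes, 1072 in all, from 2 of the 7 libraries of the series. A peak is a stretch of the mouse genome (build mm10) over which RNA recovered by a probe set gathered. Peaks were assigned to every RefSeq gene whose body, from its lowest to its highest annotated base, they overlapped by 1 base or more. The 7 libraries came from C2C12 murine myoblasts, an established mouse line of muscle precursor cells. Of these, 2 were labelled si-scr (scrambled siRNA), 2 si-lnc-31, 1 was the pull-down input, 1 the pull-down with specific (ODD) probes, called lnc-31 probes below, and 1 the pull-down with aspecific (lacZ) probes. The siRNA libraries came from proliferating cells; the labels of the pull-down give no growth state. The input was not analysed here. Each probe set had 1 library, so the pull-down has no replicate check and no test, and its values describe these libraries.

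In such a pull-down, biotinylated probes complementary to a chosen RNA pair with it in a cell extract, and beads that bind biotin recover that RNA with what is attached to it. Probes against lacZ, a bacterial gene with no counterpart in mouse cells, recover the RNA that comes down without the target. The long noncoding RNA lnc-31 is transcribed from the locus of the microRNA gene Mir31 and is known from proliferating myoblasts, and the title of the series ties it to the translation of Rock1 mRNA. The comparison therefore asks which RNAs were recovered by the lnc-31 probes and not by the lacZ probes.

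The microRNA of the locus marks where the targeted transcript is made, and its sequences are shown for that reason. They are from RefSeq (GRCm38.p6, which shares coordinates with mm10), from chr4:88910557-88910662 on the minus strand. Capitals mark both mature microRNAs in the hairpin and the seed, bases 2 to 8, in each mature form.
Mir31 hairpin: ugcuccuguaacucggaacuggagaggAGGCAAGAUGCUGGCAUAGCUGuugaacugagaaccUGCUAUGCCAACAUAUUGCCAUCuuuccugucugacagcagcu
mmu-miR-31-5p: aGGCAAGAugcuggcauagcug
mmu-miR-31-3p: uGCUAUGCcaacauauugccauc

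The annotated lncRNA gene across this hairpin, Gm49890 (chr4:88909854-88942042, minus strand, 32.2 kb), held 11 lnc-31 probe peaks and 6 lacZ probe peaks, 1.83 lnc-31 peaks for each lacZ peak. The labels do not say whether Gm49890 is the transcript the probes were designed on. The lnc-31 probe peak at chr4:88909801-88910800 was 1000 bases wide, covered the Mir31 hairpin and carried a deposited p of 1.25e-05. No lacZ probe peak reached it. Of 1005 RefSeq hairpins, Mir31 was the 1 that lay in a lnc-31 probe peak, and 0 lay in a lacZ probe peak. Each deposited p rests on reading the seventh column of the peak lists as a p-value from its range, since no label or header names it.

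All 6 lacZ probe peaks in Gm49890 overlapped lnc-31 probe peaks, and a lacZ probe peak was met by 7 of the 11 lnc-31 probe peaks. At the shared place nearest the hairpin, chr4:88917201-88917400, the lnc-31 probes gave a deposited p of 7.49e-06 and the lacZ probes one of 0.000946. At chr4:88934601-88935000 it was 7.96e-07 and 0.000464. At chr4:88929601-88929800 it was 0.000587 and 0.00407. The 4 lnc-31 probe peaks that overlapped no lacZ peak were the one at the hairpin and 3 others, of 200, 400 and 200 bases, with deposited p from 5.39e-07 to 3.24e-05. The Mir31 locus was thus present in both lists, with more peaks and lower deposited p in the lnc-31 list. Lower deposited p in that list was not particular to this locus. The median over all peaks was 0.000595 in the lnc-31 list and 0.00104 in the lacZ list. In 51 of the 55 overlapping pairs of peaks the lnc-31 probe peak had the lower one.

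**Figure D1:**
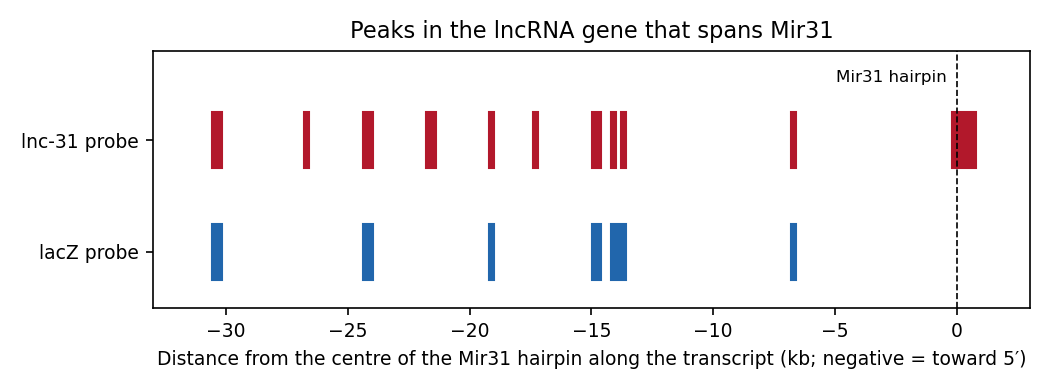
Peaks along Gm49890, the lncRNA gene that spans Mir31, plotted by distance in kb from the centre of the Mir31 hairpin along the transcript, with 1 row for each probe set and each bar drawn to the peak's width. The 6 lacZ probe peaks sit at places also held by lnc-31 probe peaks, and the 1000-base lnc-31 probe peak at 0 covers the hairpin.

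Of 49980 RefSeq genes with a span, 433 held a peak of either list. The lnc-31 probes recovered 245 genes (0.49% of all) and the lacZ probes 234 (0.468%). Among the 12967 genes with a row in the deposited expression table these shares were 1.74% and 1.67%. Of the 433 genes, 199 had lnc-31 probe peaks alone, 188 had lacZ probe peaks alone and 46 had both. Most peaks lay in genes in both lists, 580 lnc-31 probe peaks (97.3%) and 464 lacZ probe peaks (97.5%). A single peak was usual: 148 of the lnc-31 probe genes (60.4%) and 154 of the lacZ probe genes (65.8%) had 1. Genes with 5 or more peaks numbered 28 for the lnc-31 probes, of which 21 had no lacZ probe peak, and 17 for the lacZ probes, of which 5 had no lnc-31 probe peak. Genes that overlap each other are each counted in these numbers, though they can hold the same peaks.

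Most peaks of each list overlapped no peak of the other. The peaks cover 202.6 kb of the genome in the lnc-31 list and 126 kb in the lacZ list. The overlap of unrelated lists of that size was not determined. A lacZ probe peak was overlapped by 54 of the lnc-31 probe peaks (9.06%, exact 95% binomial interval 6.88 to 11.7%), and of the lacZ probe peaks 53 overlapped a lnc-31 probe peak (11.1%, 8.45 to 14.3%). These intervals cover counting error alone and treat peaks as separate, though many share a gene. In the 55 overlapping pairs the lnc-31 probe peak had the lower deposited p in 51, with a median of 0.00031 against 0.00106. The lacZ probe peak was the wider one in 29 pairs, the lnc-31 probe peak in 4, and the widths were equal in 22.

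**Figure D2:**
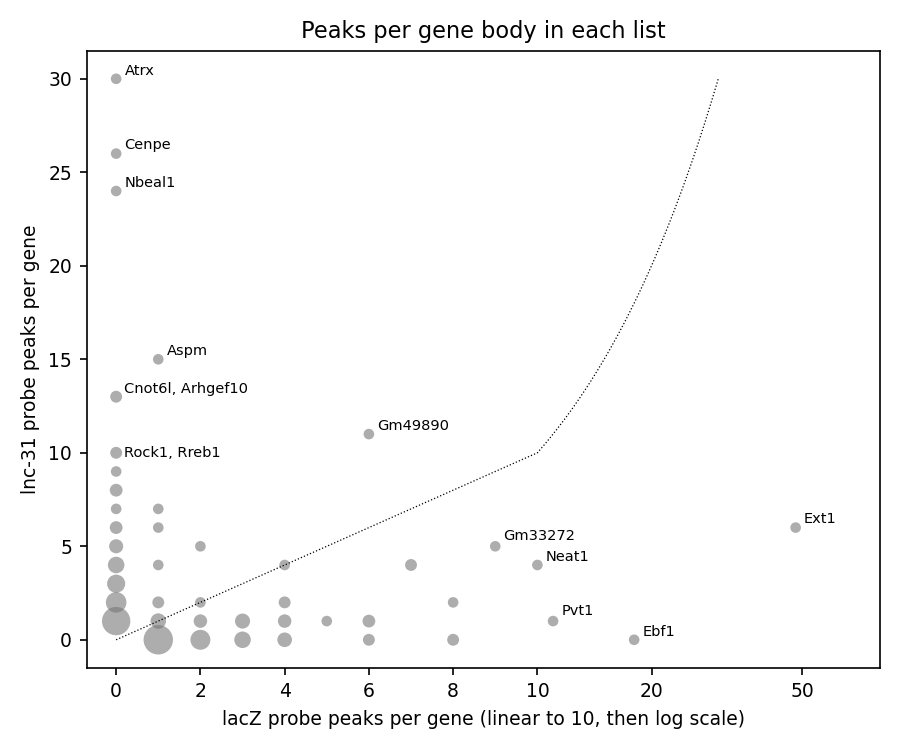
Each point is a gene body, placed by its number of lacZ probe peaks (horizontal, linear to 10 and then a log scale) and lnc-31 probe peaks (vertical), with larger points for more genes and a dotted line of equal counts. Atrx, Cenpe and Nbeal1 stand at 30, 26 and 24 lnc-31 probe peaks with 0 lacZ probe peaks, and Ext1 at 6 and 48.

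The 10 protein-coding genes with most lnc-31 probe peaks held 0 or 1 lacZ probe peak. Atrx, a chromatin remodeller that helps place a histone variant at repeats, held 30 lnc-31 probe peaks and 0 lacZ probe peaks over 132 kb (chrX:105797615-105929372, minus strand). They covered 11200 bases, the widest was 1800 bases, the lowest deposited p was 2.05e-07, and they ran from 0.271 to 131.6 kb after the start, almost the whole gene. Atrx was at 29.7 and 31.4 FPKM in the scrambled siRNA libraries. FPKM counts a transcript's sequenced fragments per unit of its length and of library size. Cenpe, a kinesin motor of the kinetochore, held 26 and 0 peaks over 61.0 kb (chr3:135212563-135273540, plus strand), also spread along the gene, with 8 in its first 20% and 1 in its last. It was at 15.4 and 16.3 FPKM. Nbeal1, a BEACH-domain protein, held 24 and 0 peaks over 160 kb (chr1:60178740-60338328, plus strand). Its peaks lay between 78.8 and 158.7 kb from the start, with 7 in the last 20%, and it was at 3.69 and 3.93 FPKM.

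The mitotic genes went on with Aspm, a spindle pole protein, which had 15 lnc-31 probe peaks and 1 lacZ probe peak. That lacZ probe peak lay inside the lnc-31 probe peaks' range and overlapped 1 of them, with a deposited p of 0.00983 near the end of the list's range. Zwint, another kinetochore protein, had 7 and 0 peaks at 154.2 and 163.6 FPKM, and Cenpf, which binds kinetochores in mitosis, had 3 and 0 at 13.2 and 13.8 FPKM. Across the 67 cell cycle and mitosis genes of the list used, however, 3 had lnc-31 probe peaks and 3 had lacZ probe peaks (4.48% each), so the 44 lnc-31 probe peaks against 3 lacZ probe peaks came from Cenpe, Aspm and Cenpf. Zwint is not on that list. Over all genes with a row the shares were 1.74% and 1.67%.

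Further genes had many lnc-31 probe peaks and none with the lacZ probes. Cnot6l, a deadenylase subunit that shortens poly(A) tails, had 13 peaks, the widest of them 2600 bases, and was at 20.5 and 23.2 FPKM. Upf2, a factor of nonsense-mediated decay, had 8 at 9.71 and 10.8 FPKM, and Smg1, a kinase of the same pathway, had 3. Arhgef10, a guanine nucleotide exchange factor, had 13 at 14.3 and 14.4 FPKM. Rreb1, a zinc finger transcription factor, had 10, of which 8 lay in the last 20% of the gene. Ccdc88a, which encodes the actin-binding protein girdin, had 9, all beyond 79.7 kb of a gene of 137 kb. Thus peaks ran along nearly the whole gene in Atrx and Cenpe. In Cnot6l they reached both ends but 7 of 13 lay in the last 20%, and in Rreb1 and Ccdc88a they lay toward the 3′ end.

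Rock1, the serine/threonine kinase named in the title, held 10 lnc-31 probe peaks and 0 lacZ probe peaks. The deposited p of these peaks ran from 2.1e-05 to 0.0084, and 3 of the 10 were at 0.001 or less. Of them 9 lay within 35.2 kb at one end of the gene body and the tenth, with the lowest p, within 0.251 kb of the other end. The table of gene spans gives no strand for Rock1, so these ends were not set as 5′ and 3′. Rock1 was at 16.6 and 17.1 FPKM. Rock2, its close relative, was at 38.7 and 38.4 FPKM, held 0 lnc-31 probe peaks and had 3 lacZ probe peaks. Ybx1, the gene of the RNA-binding protein YB-1, had no peak in either list at 524.4 and 514.4 FPKM. Of 32 genes for ROCK signalling and actomyosin, Rock1 was the 1 with lnc-31 probe peaks (3.13%), and 4 had lacZ probe peaks (12.5%), Diaph3, Rock2, Msn and Rnd3. These shares were 1.74% and 1.67% over all genes with a row. The 32 genes had a median gene body of 56.6 kb and a median level of 39.2 FPKM. The shares were 2.51% and 2.31% in genes of 30 to 100 kb, and 1.95% and 3.39% at 30 to 100 FPKM. Whether the list differs from genes of like length and level was not tested.

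The genes with most lacZ probe peaks often held lnc-31 probe peaks too, 12 of the 17 with 5 or more. Among the 12, Xist and Tsix hold the same lacZ probe peaks, as do Fam227b and Fgf7, so these are not separate places. Ext1, a polymerase of heparan sulfate (chr15:53068261-53346183), held 48 lacZ probe peaks, 10.1% of that list, and 6 lnc-31 probe peaks, all of which overlapped lacZ probe peaks. It was at 63.6 and 66.1 FPKM. Ebf1, a transcription factor, had 18 lacZ probe peaks and 0 lnc-31 probe peaks at 6.49 and 6.39 FPKM, all in the 5′ part of a gene of 390 kb (median position 25.4%). Rbfox2, a splicing regulator, and Gpc6, a cell surface glypican, each had 8 lacZ probe peaks and 0 with the lnc-31 probes. Of 38 abundant noncoding RNAs 4 had peaks, each in both lists (10.5%): Neat1, Pvt1, Xist and Tsix. Xist and Tsix are counted as separate members though they hold the same lacZ probe peaks. Over all RefSeq genes with a span 0.49% had lnc-31 probe peaks and 0.468% lacZ probe peaks. Over genes with a row these shares were 1.74% and 1.67%. Neat1, the scaffold of paraspeckles, had 4 lnc-31 and 10 lacZ probe peaks, and Pvt1, a lncRNA near Myc, had 1 and 11. Xist, the RNA of the inactive X chromosome, had 4 and 7, on a stretch it shares with the antisense gene Tsix; the peaks carry no strand, so the pair cannot be told apart. Malat1, another abundant nuclear lncRNA, had no peak in either list at 28.5 and 28.0 FPKM.

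In the 46 genes with peaks of both lists, lacZ probe peaks were more numerous in 28, lnc-31 probe peaks in 8, and the counts were equal in 10. The peaks of the 2 lists overlapped in 32 of these genes and did not in 14. Vim, the intermediate filament of myoblasts, had 4 and 4 peaks at 1998 and 1913 FPKM, and each lnc-31 probe peak overlapped a lacZ probe peak. Palld, an actin bundling protein, had 1 and 6, and its lnc-31 probe peak, with a deposited p of 6.56e-07, overlapped a lacZ probe peak. Plcb1, a phospholipase C, had 7 and 1, apart from each other, with 6 of the 7 in the last 20% of the gene and the lacZ probe peak at 35.0% of its length. Agfg1, an Arf GAP-related protein, had 6 and 1, also apart. Strand was known for 33 of the 46, and the median position of the lnc-31 probe peaks was further toward the 3′ end in 19, that of the lacZ probe peaks in 12, and equal in 2. Among the 11 of these without overlap the lnc-31 probe peaks were further in 9.

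Peaks of the lnc-31 probes lay closer to the 3′ end of genes than peaks of the lacZ probes. Strand was known for 330 of the 433 genes, from RefSeq's promoter and miRNA tables, which left 489 of 611 pairs of a lnc-31 probe peak and a gene and 311 of 499 lacZ pairs. The median position was 68.7% of the gene body for lnc-31 pairs and 41.2% for lacZ pairs. In the last 20% of the gene lay 203 lnc-31 pairs (41.5%) and 38 lacZ pairs (12.2%), and in the first 20% lay 60 (12.3%) and 81 (26.0%). Within 5000 bases of the 3′ end lay 169 (34.6%) and 24 (7.72%). Peaks of 1000 bases or more were mostly at that end: 22 of the 28 wide lnc-31 pairs (78.6%) lay in the last 20%.

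**Figure D3:**
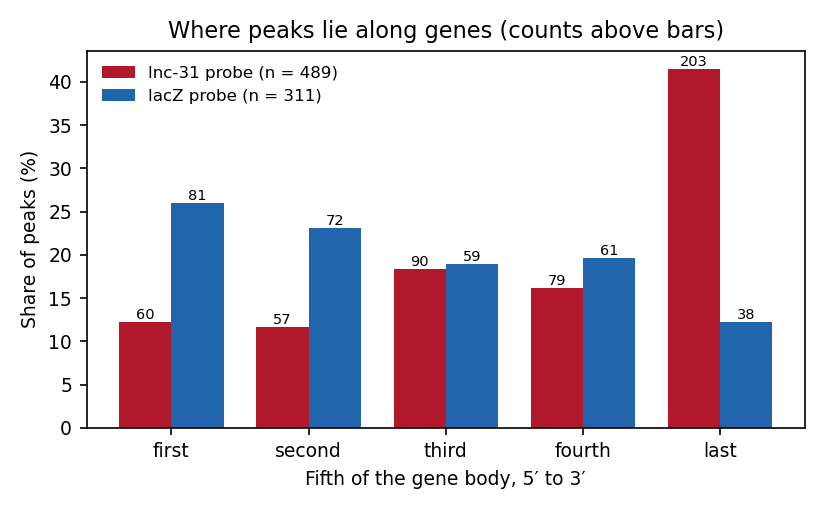
Share of peak and gene pairs (percent, vertical) in each of 5 equal stretches of the gene body from 5′ to 3′ (horizontal) for the lnc-31 probes (489 pairs) and the lacZ probes (311 pairs), with counts above the bars. The lnc-31 bar at the 3′ end holds 203 pairs, 41.5%, and the lacZ bar there 38 pairs, 12.2%.

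The genes recovered by the lacZ probes were longer, so the share in the last 20% was also taken within lengths. It was 39.2% of lnc-31 pairs and 18.5% of lacZ pairs in genes under 30 kb, 37.9% and 12.5% in genes of 30 to 100 kb, and 48.3% and 9.15% in genes of 100 kb or more. Without the 3 genes of known strand with most pairs of each list (Atrx, Cenpe and Nbeal1; Ebf1, Gm33272 and Xist) it was 46.0% and 11.6%. Counted by gene, 111 of 192 genes (57.8%) had a lnc-31 probe peak in the last 20% and 28 of 171 (16.4%) a lacZ probe peak. The difference in position was thus seen in each length class and without those 6 genes. Ext1, Pvt1 and Neat1, with most lacZ probe peaks beside Ebf1, have no strand in these tables and did not enter it. The reference used gave no exons, so whether a peak lay in an exon, an intron or a UTR was not determined.

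**Figure D4:**
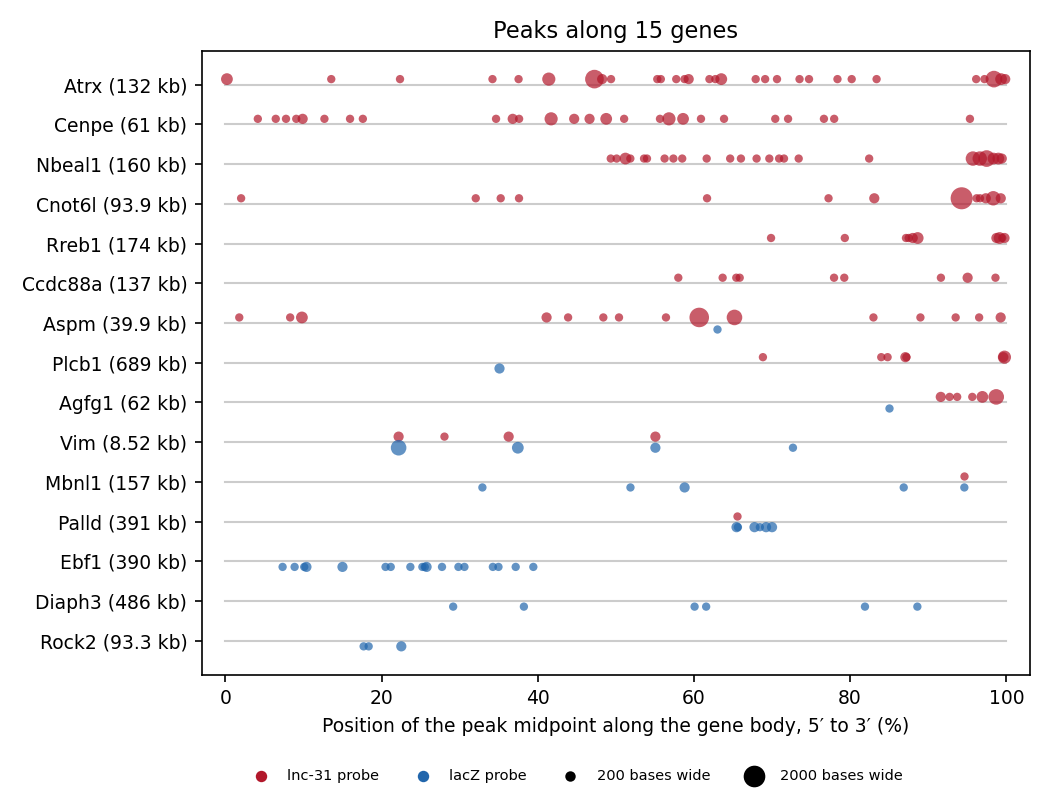
Peaks along 15 genes, with each gene body scaled to 100% from 5′ to 3′ (horizontal), 1 line for each gene with its length in kb, and point size set by peak width (lnc-31 probes above the line, lacZ probes below). Peaks of Rreb1 and Agfg1 gather at the right, 7 of the 13 peaks of Cnot6l lie in the last 20%, peaks of Atrx and Cenpe run along the gene, and the 18 lacZ probe peaks of Ebf1 keep to its 5′ part.

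At annotated starts, 19 lnc-31 probe peaks overlapped 20 promoter windows of 19 genes, and 4 lacZ probe peaks overlapped 4 windows of 4 genes. Some of these starts were not the outermost of their gene, and some of the peaks lay in the body of another gene. The windows of Ckap2 and Gm29878 were met by the same lnc-31 probe peak and share most of their bases. A window runs from 250 bases before to 50 bases after an annotated start. The median GC content was 59% in the 20 windows, 38.2% in the 4, 62% in all windows of recovered genes and 52.7% in all 32851 windows. The 250 bases upstream of the outermost start are shown for Set and Gadd45g, whose RNA also differed in the knockdown described further on, for Atrx, the gene with most lnc-31 probe peaks, and for Vegfd, whose peak covered 121 of them. That Vegfd peak had a deposited p of 0.00981, near the end of the list's range. The peaks at Set, Gadd45g and Atrx had 7.71e-05, 0.000254 and 0.000183. Capitals mark the bases inside the lnc-31 probe peak (RefSeq, GRCm38.p6).
Set, chr2:30061746-30061995, plus strand: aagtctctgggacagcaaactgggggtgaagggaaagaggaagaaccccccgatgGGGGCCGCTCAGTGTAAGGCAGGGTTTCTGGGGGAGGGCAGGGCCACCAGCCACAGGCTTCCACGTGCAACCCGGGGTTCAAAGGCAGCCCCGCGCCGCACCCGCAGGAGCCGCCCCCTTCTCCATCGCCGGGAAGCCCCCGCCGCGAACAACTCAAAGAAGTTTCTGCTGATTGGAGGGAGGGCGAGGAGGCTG
Gadd45g, chr13:51846425-51846674, plus strand: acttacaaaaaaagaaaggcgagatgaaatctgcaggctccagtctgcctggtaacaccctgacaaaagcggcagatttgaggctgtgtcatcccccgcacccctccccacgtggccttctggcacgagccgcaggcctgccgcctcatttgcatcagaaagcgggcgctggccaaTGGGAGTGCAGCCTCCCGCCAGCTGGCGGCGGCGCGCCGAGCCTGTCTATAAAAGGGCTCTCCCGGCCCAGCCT
Atrx, chrX:105929373-105929622, minus strand: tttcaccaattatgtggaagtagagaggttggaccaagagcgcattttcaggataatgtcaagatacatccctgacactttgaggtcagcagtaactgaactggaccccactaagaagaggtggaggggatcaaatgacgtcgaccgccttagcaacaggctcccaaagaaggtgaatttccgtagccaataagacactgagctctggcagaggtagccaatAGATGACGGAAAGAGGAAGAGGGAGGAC
Vegfd, chrX:164373272-164373521, plus strand: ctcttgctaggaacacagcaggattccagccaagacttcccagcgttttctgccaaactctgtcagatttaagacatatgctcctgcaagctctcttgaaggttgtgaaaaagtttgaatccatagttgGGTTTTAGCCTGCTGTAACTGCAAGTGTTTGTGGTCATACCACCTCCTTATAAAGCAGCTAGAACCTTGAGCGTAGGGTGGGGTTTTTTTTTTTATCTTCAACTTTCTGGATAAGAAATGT

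The peak took in 195 of the 250 upstream bases of Set, 74 of Gadd45g and 28 of Atrx. The 3 short core promoter motifs were searched in the 250 upstream bases on both strands, and none contains another. TATAAA was in 3 of the 20 windows with a lnc-31 probe peak and in 12.4% of all windows, CCAAT in 11 of 20 and in 33.8%, and GGGCGG in 13 of 20 and in 32.7%. In the 4 windows with a lacZ probe peak these numbers were 4, 2 and 0. Gadd45g and Vegfd held TATAAA, Set, Gadd45g and Atrx held CCAAT, and Set held GGGCGG. A match is a string of letters and not a shown site. The 20 windows and those of recovered genes had more GC (medians 59% and 62%) than all windows (52.7%). Motifs were not counted in the windows of recovered genes, so these numbers do not show a trait of windows with a peak.

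Genes recovered by the lnc-31 probes alone were at lower levels in the scrambled siRNA libraries than those recovered by the lacZ probes. The median was 13.8 and 14.2 FPKM in the 2 libraries for the former, 34.7 and 36.5 for genes with lacZ probe peaks alone, and 48.8 and 47.3 for genes with both, beside 10.8 and 11.2 over all 13376 rows. By the mean of both libraries the medians were 14.2, 35.1 and 42.0 FPKM. Levels over 100 FPKM were found for 12 genes with lnc-31 probe peaks alone (6.42%), 37 with lacZ probe peaks alone (20.8%) and 10 with both (25.6%), against 6.83% of all rows. The pull-down and siRNA libraries were made with different kits, NuGEN Ovation and TruSeq Stranded mRNA, so FPKM stands for the level of an RNA in these cells and not for its level in the pull-down input.

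Gene length also differed between the classes. The median gene body was 35.6 kb with lnc-31 probe peaks alone, 88.2 kb with lacZ probe peaks alone and 55.0 kb with both, against 21.3 kb for all genes with a row. Among genes of 30 to 100 kb the median level was still 13.5 FPKM for lnc-31 probe peaks alone, 44.4 for lacZ probe peaks alone and 12.7 for all genes of that length with a row. By level, the share of genes with a lnc-31 probe peak was 0.253% under 1 FPKM, 2.48% at 10 to 30 FPKM 1.95% at 30 to 100 and at 100 to 300, and 3.17% at 300 or more. With the lacZ probes it was 0.127%, 1.67%, 3.39%, 5.41% and, at 300 or more, 3.87%. Among the 100 most abundant rows 3 genes had a lnc-31 probe peak and 1 a lacZ probe peak. Ftl1, a ferritin light chain at 7493 and 8225 FPKM, Lgals1, a galectin at 6146 and 6599, and S100a4, a calcium-binding protein at 5693 and 5964, had none.

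**Figure D5:**
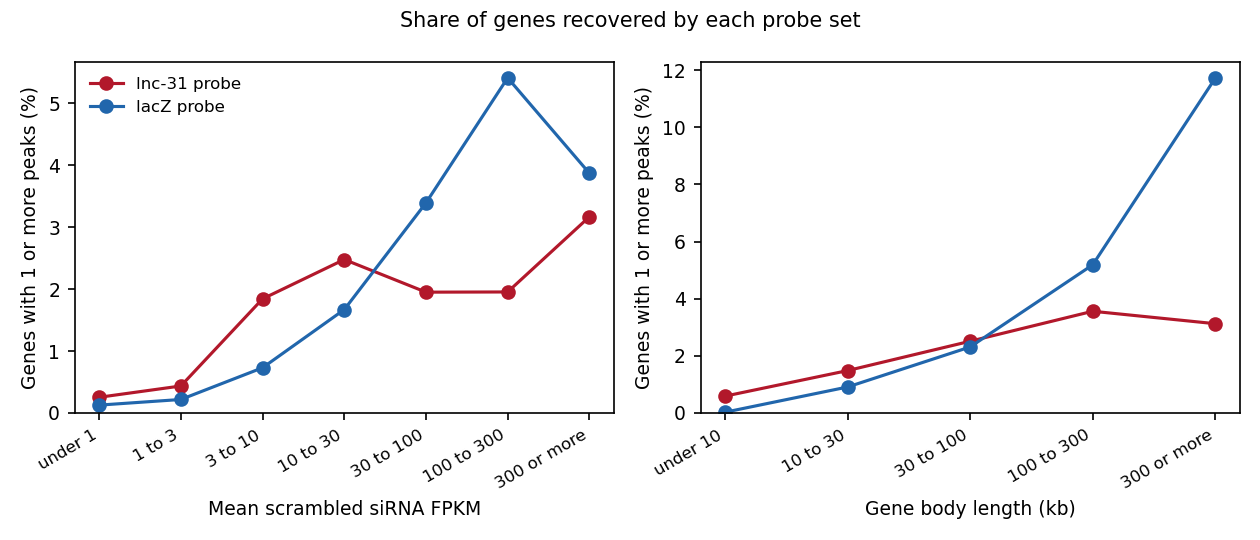
Percent of genes with 1 or more peaks (vertical) by mean scrambled siRNA FPKM (left) and by gene body length in kb (right), for each probe set. With the lacZ probes the share reaches 5.41% at 100 to 300 FPKM and 11.7% in genes of 300 kb or more, where it is 1.95% and 3.13% with the lnc-31 probes.

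Recovered genes were also counted in lists of genes by function. Of 84 chromatin regulators 8 had lnc-31 probe peaks (9.52%, 51 peaks, 30 of them in Atrx) and 6 had lacZ probe peaks (7.14%, 7 peaks), with none in common. Beside Atrx the former were Zmym5 with 8 peaks, Baz1a with 5 and Msl3 with 4, while the latter included the cohesin subunit Rad21 with 2. The 5 peaks of Baz1a also lie in the lncRNA gene Gm51983. Of 102 genes for RNA binding, splicing and decay 11 had lnc-31 probe peaks (10.8%) and 18 lacZ probe peaks (17.6%), 4 of them both. Mbnl1, a splicing factor known from muscle, had 1 and 5. Of 52 extracellular matrix genes 3 had lnc-31 probe peaks (5.77%) and 9 lacZ probe peaks (17.3%), among them the collagens Col1a2 with 1 and 3 and Col5a2 with 0 and 4. Among all genes with a row these shares were 1.74% and 1.67%. No list was tested.

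Of 40 muscle contractile and differentiation genes 0 had a peak in either list, which at shares of 1.74% and 1.67% over all genes with a row says little about these genes. Of 23 myogenic regulators 2 had lacZ probe peaks (8.70%), Eya4 with 3 and Tcf12 with 1, and 0 had lnc-31 probe peaks. Of 91 cytosolic ribosomal protein genes, whose median level was 1065 FPKM, Rps25 and Rpl22 had 1 lnc-31 probe peak each (2.20%) and 0 had a lacZ probe peak. Among Rab and Arf traffic genes 8 of 211 had lnc-31 probe peaks (3.79%) and 2 lacZ probe peaks (0.948%). Of the 211 genes 178 had a row. Of the myoblast markers 7 of 8 had a row, with summed levels of 456.1 and 473.6 FPKM in the scrambled siRNA libraries, and Pax7 had none. Of the fibroblast markers 3 of 5 had a row, with sums of 493.5 and 505.8 FPKM, nearly all from Col1a1, and of the endothelial markers 0 of 3. No marker had a peak in either list.

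Whether a gene fell in a class by its peaks did not use the knockdown, but the single genes named from it were mostly those of smallest p in their class or of most peaks. In the fit across 11500 rows (limma on log2(FPKM + 1), Benjamini-Hochberg adjusted p under 0.05) 12.4% were called. Relative to scrambled siRNA, 5.64% were higher and 6.78% lower where the label read lnc-31 siRNA. The row that names Mir31 read 13.4 and 15.6 FPKM after scrambled siRNA, and 12.1 and 14.1 after siRNA labelled lnc-31, so the groups overlapped. Its log2 fold change was -0.14 (limma, adjusted p = 0.383), and a fall of the targeted RNA was not shown. Of 183 tested genes with lnc-31 probe peaks alone, 7 were higher and 14 lower, 11.5% in all. Of 176 with lacZ probe peaks alone 9 were higher and 17 lower (14.8%), and of 39 with both 2 were higher and 4 lower (15.4%). All of these shares are near the 12.4% of all rows. In such bulk RNA, fewer cells of a kind and less RNA per cell cannot be told apart.

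Gadd45g, a growth arrest and stress response gene, read 42.6 and 44.2 FPKM after scrambled siRNA, and 63.9 and 68.7 with siRNA labelled lnc-31. Its groups did not overlap, and it rose by 0.60 on the log2 scale (SE 0.052, limma adjusted p = 0.0057). The call held with each library left out (adjusted p 0.018 to 0.038). It held 2 lnc-31 probe peaks, 1 of them across its start. Set, a histone chaperone and inhibitor of protein phosphatase 2A, was at 296.3 and 312.6 FPKM and at 216.4 and 230.4 FPKM, again without overlap. It fell by 0.45 on the log2 scale (limma, SE 0.053, adjusted p = 0.010), and without scrambled siRNA 2 the adjusted p was 0.064. Eml1, a microtubule-binding protein with 1 lnc-31 probe peak, went from 50.6 and 51.4 to 40.0 and 38.4 FPKM (limma log2 fold change -0.37, adjusted p = 0.0099, and 0.057 and 0.063 without scrambled siRNA 1 and 2). Ppig, a prolyl isomerase linked to splicing, fell by 0.48 on the log2 scale (limma adjusted p = 0.011, and 0.052 without scrambled siRNA 1). Ncoa7 fell by 0.49 (limma adjusted p = 0.013), but its call was lost with any library left out (0.051 to 0.070).

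Among genes with many lnc-31 probe peaks, Atrx, Cenpe, Nbeal1 and Rock1 did not pass the test, while Arhgef10 and Ccdc88a did. Over all tested rows 12.4% passed, so a gene that does not pass is the usual case. Atrx was at 29.6 and 28.6 FPKM in the libraries labelled lnc-31 siRNA (limma log2 fold change -0.07, adjusted p = 0.40), Cenpe at 14.7 and 15.6 (-0.06, 0.50), Nbeal1 at 3.35 and 3.11 (-0.19, 0.17) and Rock1 at 17.8 and 17.6 (0.07, 0.38). Arhgef10 rose, from 14.3 and 14.4 to 17.4 and 19.2 FPKM (limma log2 fold change 0.33, adjusted p = 0.029), a call kept without lnc-31 siRNA 1 (0.044) and lost without any other library (up to 0.11). Ccdc88a fell, from 17.6 and 17.9 to 13.5 and 14.3 FPKM (limma log2 fold change -0.33, adjusted p = 0.018), a call lost with any library left out (0.052 to 0.089). Of the 21 genes called among those with lnc-31 probe peaks alone, 1 kept its call in all 4 fits with a library left out and 15 lost it in each. Of the 26 with lacZ probe peaks alone, E2f3 and Slc4a7 kept it in all 4. E2f3, a transcription factor of the cell cycle, fell by 0.67 (limma adjusted p = 0.0079), and the bicarbonate transporter Slc4a7 rose by 0.48 (limma adjusted p = 0.0092). Quantile normalization turned the split of calls with lacZ probe peaks alone from 9 higher and 17 lower to 24 and 18.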

How the data were processed

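Peak lists of the pull-down were deposited for build mm10 and made with CASAVA, Trimmomatic, cutadapt, Bowtie2, TopHat2 and Picard, per the submitters' processing notes, which give no order. Their peak caller was not given in the sources used. Peaks are whole numbers of 200-base windows, and their seventh column was read as the authors' p-value because its deposited values lie above 0 and up to 0.01. The lists give no usable strand or score, and the depth is unknown. Expression values were deposited by the authors as FPKM for 13376 rows, with TopHat2, Cuffdiff, BWA, Bowtie2, Trimmomatic and CASAVA named by the same notes. Of these rows 12676 (94.8%) matched a RefSeq gene. Sample columns without a matching label numbered 0.

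Peaks were overlapped with gene spans, and with each other, with bedtools 2.31.1 (minimum 1 base), and shares have exact Clopper-Pearson intervals at 95%. Position is that of the peak's midpoint. Deposited FPKM with a mean of 1 or more (11500 rows) were compared as log2(FPKM + 1) in limma 3.58.1 (R 4.3.3; trended prior, 3.62 prior degrees of freedom; two-sided), and calls were made at a Benjamini-Hochberg adjusted p of 0.05. On this scale the change of low genes is understated. No label says that replicate libraries are separate cultures. The p-values then measure only the spread between libraries, possibly a technical one. The fit was tested on simulated data. Python 3.11.15, pandas 2.3.3, numpy 2.4.6, scipy 1.17.1 and matplotlib 3.10.9 were used.

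The genes, the 13 gene lists and 12 name patterns were chosen with earlier results of these data known. Named genes were the 15 with most peaks among those in both lists, the 10 with most peaks of each list (ties by summed width; names that begin Gm or end Rik left out), Rock1, Rock2, Ybx1, Mir31, Neat1 and Malat1, up to 3 of each list or pattern by number of peaks, the 5 of highest level and the 5 of smallest limma p in each class, and the 5 widest peaks of each list. Others (Zwint, Smg1, Supt3, Msl3, Rad21 and the promoter windows among them) were chosen after their values were seen. A gene with many peaks is not reported here by name or in the plot of peaks per gene.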

Additional observations from a re-analysis of the deposited data

How the results depend on the processing

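With deposited p of 0.001 or less, 128 genes had lnc-31 probe peaks alone, 102 lacZ probe peaks alone and 23 both, 6.69% of lnc-31 probe peaks overlapped the other list, and 4, 4 and 1 genes of the 3 classes were called higher. Under that setting the excess of lnc-31 over lacZ probe peaks turned direction in 4 of 433 genes, Gm33272 (to 2), Arhgap28 (to -1), Supt3 (to -1) and Tigit (to 1). The median level was 13.5, 44.4 and 40.6 FPKM in genes of 30 to 100 kb, a setting added after seeing the data, and for genes with both kinds of peak 66.4 FPKM with exactly 1 peak of a list and 44.6 for protein-coding genes. Higher calls were 13 and 24 for lnc-31 and lacZ probe peaks alone with quantile normalization. With a constant prior they were 4, 3 and 1, with 2 lower calls for both, and without a filter 1 for both. With 1 library left out, higher calls ranged from 132 to 266 over all rows, 1 to 2, 1 to 3 and 0 to 0 in the 3 classes, and lower calls from 97 to 242, 1 to 4, 2 to 6 and 0 to 1; a group left with 1 library is then assumed to vary like the other. Median levels in single scrambled siRNA libraries were 13.8 to 14.2, 34.7 to 36.5 and 47.3 to 48.8 FPKM. With the replicate number as a block, 728 rows were higher and 885 lower, and 7 and 16, 13 and 19, and 2 and 5 in the 3 classes; same-numbered libraries did not deviate together (correlation -0.0944), so the numbers were not taken to pair them. No paired analysis was possible for the pull-down because each probe set has 1 library and no test. Of the other answers and settings, 99 stayed within 1.5 times the reported count or the spread. The cause of these changes was not tested, apart from fewer genes or libraries by construction. Depth is unknown, so a gene without a peak may lie under the detection limit.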

Other observations

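The lists differed in how they spread over chromosomes. Chromosome 15 held 131 of the lacZ probe peaks (27.5%), in 38 genes, and 32 of the lnc-31 probe peaks (5.37%), in 17 genes. Without Ext1, which lies there, the lacZ share was 83 of 428 peaks (19.4%). Chromosome 1 held 84 lnc-31 probe peaks (14.1%), in 19 genes that include Nbeal1 and Aspm, and 21 lacZ probe peaks (4.41%). Chromosome X, with Atrx, held 59 lnc-31 probe peaks (9.90%) and 9 lacZ probe peaks (1.89%).

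Peaks were packed more closely along the genome with the lnc-31 probes. The median spacing of neighbouring peaks was 8.4 kb, and 44.3% of spacings were under 5 kb, against 48.3 kb and 27.3% with the lacZ probes. Wide peaks were also unevenly split: 30 lnc-31 probe peaks were 1000 bases or more, of which 1 overlapped a lacZ probe peak, while all 5 lacZ probe peaks of that width overlapped lnc-31 probe peaks.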
